A study of Homo sapiens with 9 samples.

Results

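The baseline transcriptome of the vector control cells is described here, from the 3 PCDH libraries of a series of 9. The cells are of U87, an established line from a human glioblastoma, and stably carry the PCDH vector with no introduced IDH1. They were grown in DMEM with fetal bovine serum. The libraries were taken by their PCDH labels. The columns used are named Control, not PCDH, and their link to these labels was inferred from the names. The other 6 libraries, from cells with the IDH1mt or IDH1mt C269S construct, were not used, and no groups were compared. Whether the 3 libraries came from separate cultures, and how many selected lines lie behind them, is not stated, so the spread between libraries may be technical. PCDH is the vector's name in the labels and does not refer to the protocadherin genes.

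Glioblastoma is the most malignant of the common glial brain tumours, and its cells can carry expression programs that resemble neural progenitors, astrocytes or mesenchymal cells. Many of these tumours lose the p16 and ARF products of CDKN2A, which hold back the cell cycle. U87 is among the most widely used glioma lines. The commonly distributed stock does not match the DNA profile of the tumour it was named for, but it is held to be a glioblastoma.

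Total counts were 19966634, 23172684 and 22529922 in replicates 1, 2 and 3. The mitochondrial genome gave 3.20%, 2.91% and 3.35% of them. Protein-coding genes gave between 97.1% and 97.4%. Levels are given as the deposited FPKM, fragments per kilobase of gene scaled to library size, and a gene is called expressed where it reached 1 FPKM in all 3 libraries. By that rule 10296 of 19951 protein-coding genes (51.6%) and 11639 of all 58735 genes (19.8%) were expressed. The median over all protein-coding genes was 1.39 FPKM. The gene's length is that of its merged exons, which lowers genes with many transcript forms. For the 1065 genes followed here, the length of the longest transcript would give levels a median of 1.252-fold higher, and over 1.5-fold higher for 299. Of 1054 genes on 38 lists of lineage, receptor, matrix and metabolic genes, 633 were expressed. Each list count that follows is to be read beside the 51.6% of all protein-coding genes. The lists were chosen with earlier results of these data known, so their shares may partly reflect that choice. A total of 270 protein-coding genes reached 100 FPKM in all 3 libraries. No read fell on 3617 protein-coding genes (18.1%), and 4782 (24.0%) had at most 3 reads in all. Values follow as replicates 1, 2 and 3, with means ± SD (n = 3). A count of 0 in a library allows up to 3 counts, for counting error only. These are bulk samples, in which fewer cells of a kind and less RNA per cell cannot be told apart.

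Secreted protease inhibitors and cytokines were among the 20 most abundant messages of protein-coding genes outside ribosomal and mitochondrial genes. TFPI2, a Kunitz-type protease inhibitor laid down in the matrix, stood at 2602, 2682 and 2924 FPKM. PI3, which encodes the elastase inhibitor elafin, stood at 2439, 2353 and 2299 FPKM (2364 ± 70.7). The libraries of TFPI2 all stood above those of PI3. TIMP1, an inhibitor of matrix metalloproteinases, stood at 1543 ± 69.8 FPKM.

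Secreted signals stood close behind. CXCL8, a chemokine that draws neutrophils, reached 1906, 1713 and 2127 FPKM and was highest in replicate 3. CSF3, the granulocyte colony-stimulating factor, reached 1405, 1342 and 1401 FPKM, with a much narrower spread (1383 ± 35.2). The top 20 also held cytoskeletal genes (TMSB10 at 2360.0 ± 203 FPKM, ACTG1 at 1176 ± 60.6 and ACTB at 1095 ± 53.4), the ferritin chains FTL and FTH1 (1213 ± 51.5 and 1189 ± 70.04), and TMEM158 (1399 ± 2.05), a membrane protein gene known for its induction by RAS. Further members were AKR1B1, the aldose reductase (1233 ± 94.03), GAPDH (1059 ± 71.6), S100A6 (1031 ± 109), the secreted protease HTRA1 (992 ± 42.8), the galectin LGALS1 (963 ± 63.7), the metallothionein MT2A (922 ± 56.6), the matrix protein TGFBI (865 ± 31.8) and the stromelysin MMP3 (821 ± 45.6). The levels of genes with many processed copies, such as TMSB10, ACTB, GAPDH and the ferritins, are uncertain, since the handling of reads with several matches was not given. For FTH1, moreover, only 37.6% of exon bases are free of other genes' exons.

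CXCL8 lies in a cluster of chemokine genes on chromosome 4 whose members stood far apart in level. On GRCh38 the cluster ran from CXCL8 (73740506 to 73743716) to CXCL2 (74097035 to 74099293). CXCL2 stood at 371, 361 and 354 FPKM and CXCL5 at 119, 111 and 134 FPKM. CXCL6 (73836497 to 73849064), whose product acts on the same receptors as CXCL8, had 0 reads in each library. The 0 allowed at most 0.0575 to 0.0668 FPKM by library, and 95.7% of its exon bases are free of other genes' exons. The platelet chemokine genes PF4 and PF4V1 also had no read, while PPBP stood at 12.3, 10.9 and 14.2 FPKM. CXCL1 (83.5 ± 6.01 FPKM), CXCL2 and CXCL3 (60.8 ± 2.04 FPKM) are close copies of each other, so the division of reads among them is uncertain.

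The 250 bases before the RefSeq start of CXCL8, CXCL6, CXCL5 and CXCL2 are shown because these neighbours include the highest member and a silent member of the cluster. The letters are from RefSeq on GRCh38.p14, 5′ to 3′ on the gene's own strand. Capitals mark matches to 3 motifs: TGANTCA, the letters of AP-1, on both strands; GGNNTTTCC, a form of the NF-kappaB motif, on both strands; and TATAAA on the gene's strand in the last 50 bases.
CXCL8 (chr4:73740319-73740568, plus strand): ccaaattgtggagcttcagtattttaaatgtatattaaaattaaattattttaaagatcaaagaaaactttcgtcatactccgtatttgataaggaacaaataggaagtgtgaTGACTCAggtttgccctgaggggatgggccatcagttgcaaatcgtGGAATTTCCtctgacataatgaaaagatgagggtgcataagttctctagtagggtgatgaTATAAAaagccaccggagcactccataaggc
CXCL6 (chr4:73836428-73836677, plus strand): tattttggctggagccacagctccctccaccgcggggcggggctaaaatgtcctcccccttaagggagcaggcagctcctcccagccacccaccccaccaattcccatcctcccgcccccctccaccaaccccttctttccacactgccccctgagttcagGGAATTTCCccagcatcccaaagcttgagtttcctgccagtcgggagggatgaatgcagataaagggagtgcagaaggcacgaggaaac
CXCL5 (chr4:73998678-73998927, minus strand): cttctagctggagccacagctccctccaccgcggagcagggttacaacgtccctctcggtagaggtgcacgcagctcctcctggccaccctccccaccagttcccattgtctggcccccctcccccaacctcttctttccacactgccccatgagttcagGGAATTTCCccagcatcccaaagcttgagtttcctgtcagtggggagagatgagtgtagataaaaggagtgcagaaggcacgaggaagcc
CXCL2 (chr4:74099196-74099445, minus strand): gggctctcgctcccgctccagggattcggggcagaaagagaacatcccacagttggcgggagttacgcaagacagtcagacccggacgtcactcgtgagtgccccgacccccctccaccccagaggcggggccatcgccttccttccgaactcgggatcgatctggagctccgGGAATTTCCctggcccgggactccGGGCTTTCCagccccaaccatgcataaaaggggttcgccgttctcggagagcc

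The CXCL8 window held TGACTCA at 137, GGAATTTCC at 91 and TATAAA at 31 bases before the start. The same letters GGAATTTCC stood 89 bases before the start of the silent CXCL6, 90 before that of CXCL5 and 77 before that of CXCL2. CXCL2 held a further GGGCTTTCC at 53 bases. The windows of CXCL6 and CXCL5 were identical at 214 of 249 aligned bases (85.9%), while those of CXCL8 and CXCL2 were identical at 53.2% of 216 aligned bases. For all 4 genes the outermost start in the count table lies within the RefSeq window, so the sources place the starts differently. A match is a description of the letters and not of a bound factor.

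Promoter windows were matched for 31 of 40 cytokine genes on the list described further on. GGNNTTTCC occurred in 8 of 24 windows of expressed cytokine genes (33.3%), in 3 of 7 of those not expressed (42.9%) and in 5.78% of all 14896 windows of protein-coding genes. TGANTCA occurred in 4 of the 24 (16.7%), in 1 of the 7 (14.3%) and in 5.05% of all windows. TATAAA occurred in 7 of the 24 (29.2%), in 2 of the 7 (28.6%) and in 3.70% of all windows. For each of the 3 motifs the shares of expressed and unexpressed cytokine genes lay close together, over few windows.

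CDKN2A (ENSG00000147889, chromosome 9, 21967753 to 21995301 on GRCh38) had no read in any library. It stood within a run of 25 consecutive protein-coding genes with 2 reads between them, 1 on FOCAD and 1 on MTAP. The run reached from MLLT3 to DMRTA1 (chromosome 9, 20341665 to 22455740, 2.11 Mb). It held CDKN2B, whose p15 product blocks the same cyclin D kinases as p16, and MTAP, the methionine salvage enzyme. It also held HACD4, KLHL9 and 16 interferon genes, which most cells keep silent without infection. Together these genes have 77842 exon bases that no other gene's exons share.

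The genes next to the run had reads but did not reach 1 FPKM in all 3 libraries. SLC24A2, before it, had 209, 283 and 253 reads (0.944, 1.10 and 1.04 FPKM), and ELAVL2, after it, had 34, 46 and 37 reads (0.321, 0.374 and 0.317 FPKM). Expressed genes lay farther out on both sides. RPS6, a ribosomal protein gene before the run, had 4987, 5919 and 5921 reads, and beyond ELAVL2 came TUSC1 with 282, 347 and 305 and PLAA with 625, 682 and 718 reads, while IZUMO3, between ELAVL2 and TUSC1, had none. Of 2566 runs of silent genes outside the Y chromosome, this run tied for place 7 by number of genes. The 6 longer runs held mainly olfactory receptor, defensin, keratin-associated and similar families, which are silent in most tissues. RNA counts cannot tell a deleted gene from a silent gene.

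CDKN2C, which encodes p18, another inhibitor of the cyclin D kinases, had no read either. It stood in a run of 5 protein-coding genes on chromosome 1 (50048014 to 51148086 on GRCh38, 1.10 Mb), from ELAVL4 to C1orf185. The run had 2 reads in all, both on FAF1 in replicate 1. FAF1 is a broadly expressed gene of protein degradation. After the run, RNF11, the next gene, had 1917, 2292 and 2320 reads and was expressed, TTC39A was not (0.228, 0.201 and 0.334 FPKM), and EPS15 and NRDC, farther out, were expressed with 920, 1219 and 1312 and 3924, 4670 and 4529 reads. Before the run, AGBL4 had no read and BEND5 5, 6 and 3 reads, while SPATA6, the next gene farther out, was expressed at 2.28, 2.88 and 2.83 FPKM (279, 409 and 382 reads).

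**Figure D1:**
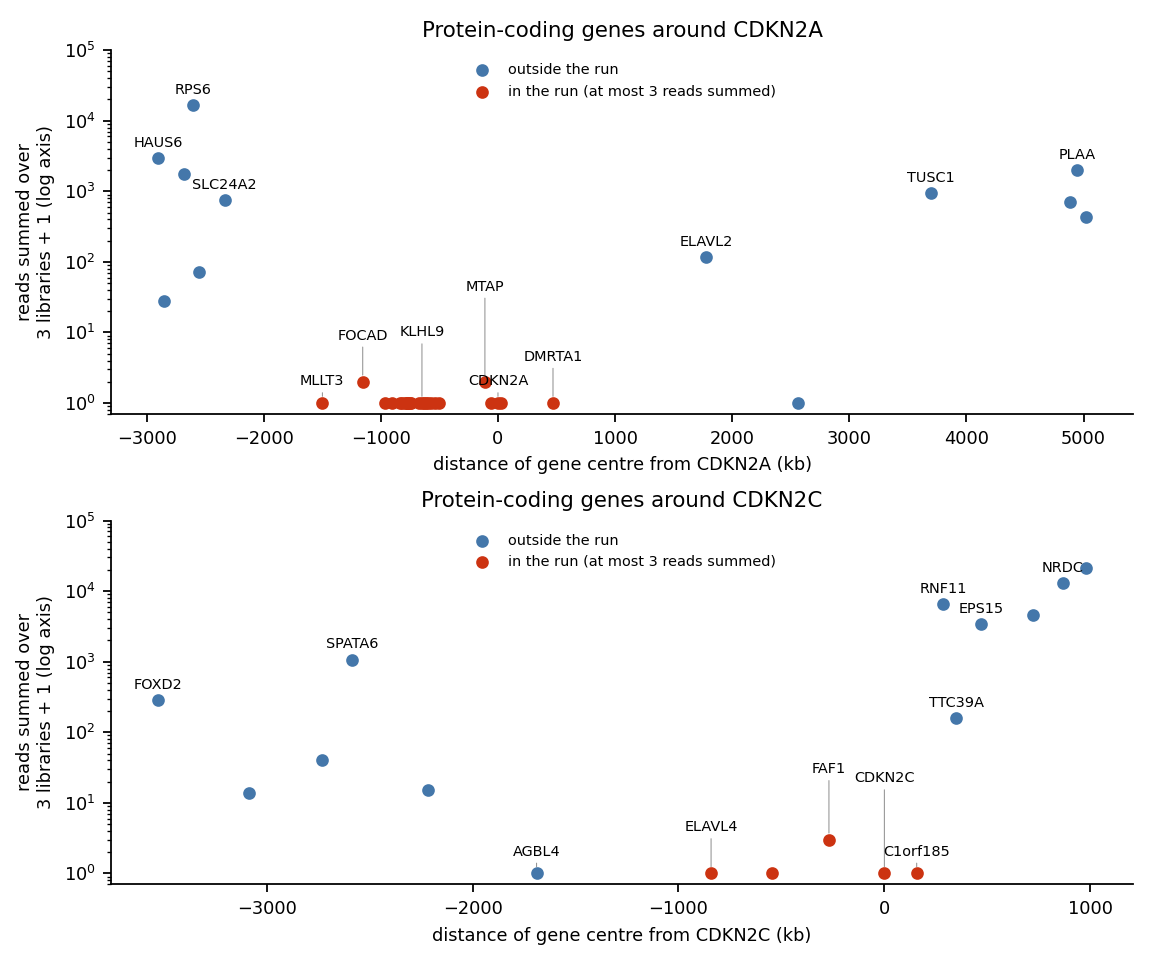
Reads summed over the 3 vector libraries, plus 1, on a log axis, for the protein-coding genes around CDKN2A (top) and CDKN2C (bottom), by the distance of each gene's centre in kb. Red points are the 25 and 5 genes of the silent runs, and blue points the genes outside them. The CDKN2A run lies between SLC24A2 (745 reads) and ELAVL2 (117 reads), and the CDKN2C run ends before RNF11 (6529 reads).

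The other cell cycle inhibitors and tumour suppressors were present. Of 32 on the list, 28 were expressed (87.5%, against 51.6% of all protein-coding genes). A further 3 had no read (CDKN2A, CDKN2B and CDKN2C), and CDKN1C was under 1 FPKM (0.216, 0.253 and 0.213). CDKN2D, the remaining member of the family of CDKN2A, stood at 22.9, 26.1 and 23.4 FPKM. CDKN1A, which encodes p21, led the list with 123, 128 and 119.7 FPKM. RB1, which holds back entry into S phase, stood at 5.12, 4.68 and 6.63 FPKM, and NF1, which restrains RAS, at 3.47, 3.10 and 3.83 FPKM. A message level does not show whether the protein is intact.

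Among 27 glioma oncogenes, 22 were expressed (81.5%, against 51.6% of all protein-coding genes). They were led by CCND1, which encodes cyclin D1, at 123, 118 and 125 FPKM. CCND2 had 17 reads in all and MYCN none. CDK4 stood at 20.8, 22.5 and 20.5, CDK6 at 4.36, 4.53 and 5.19 and MYC at 16.3, 16.9 and 15.2 FPKM. The level of CDK4 is less certain, since 56.8% of its exon bases are free of other genes' exons. IDH1 and IDH2, the isocitrate dehydrogenases mutated in many lower-grade gliomas, stood at 23.4, 21.4 and 24.8 and 31.1, 33.9 and 33.7 FPKM without any introduced copy.

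MGMT, the enzyme that removes alkyl groups from guanine and blunts temozolomide, had no read in the 3 libraries, which allowed at most 0.0353 to 0.0410 FPKM by library. The other 15 members of the alkylation repair list were all expressed (93.75% of the list, against 51.6% of all protein-coding genes). APEX1, the endonuclease of base excision repair, stood at 24.00, 26.8 and 21.5, and the mismatch repair gene MSH6 at 9.25, 9.45 and 10.02 FPKM. Of 14 telomere genes 12 were expressed (85.7%). TERT, the catalytic part of telomerase, was low in every library (0.274, 0.482 and 0.316 FPKM, 112 reads in all). ATRX, whose loss goes with the alternative pathway of telomere lengthening, stood at 3.96, 4.64 and 5.20 FPKM. TERC, the RNA part of telomerase, had no read, but only 19.04% of its exon bases are unshared and its RNA is not polyadenylated in the usual way, so its level is uncertain.

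The lineage lists were checked against the labelled glioblastoma cell type. Glial identity genes were mostly low. Of 17 astrocyte markers 7 were expressed (41.2%, median 0.422 FPKM). GFAP, the astrocyte intermediate filament, stood at 0.341, 0.269 and 0.247 FPKM, S100B at 0.101, 0.116 and 0.122 FPKM, and AQP4, the water channel of astrocyte endfeet, had no read. The highest astrocyte markers were the gap junction gene GJA1 (121, 129.7 and 138 FPKM) and CLU (79.6, 76.8 and 79.8 FPKM), both of which many other cell types express. SOX9, a transcription factor shared by glia and cartilage, stood at 3.89, 4.57 and 4.73 FPKM.

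Oligodendrocyte and precursor markers had 5 of 16 members expressed. CSPG4, the NG2 proteoglycan, led them at 28.7, 28.7 and 26.4 FPKM, and VCAN followed at 17.5, 17.04 and 20.4 FPKM. OLIG2, the transcription factor of the oligodendrocyte lineage, was expressed at 2.54, 2.12 and 2.46 FPKM. Its partners were near 0, with 2 reads in all on OLIG1 and 3 on SOX10, and MOG had none. PDGFRA, the growth factor receptor of precursors, was below 1 FPKM (0.509, 0.812 and 0.742).

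Neural stem and progenitor markers had 5 of 20 members expressed, led by the filament gene NES at 11.7, 12.1 and 10.1 FPKM and BMI1 at 10.5, 9.40 and 11.8 FPKM. SOX2, the transcription factor of neural stem cells, had 5 reads in all, and PROM1, the CD133 gene, had 13. SOX1, SOX11 and NANOG had none. Neuron markers had 5 of 17 expressed (29.4%, against 51.6% of all protein-coding genes). SNAP25, a protein of synaptic vesicle fusion, stood at 13.2, 12.6 and 14.1 FPKM, while ELAVL4, GAD2 and SLC17A6 had no read. ELAVL4 is also a member of the silent run around CDKN2C, where a deleted gene cannot be told from a silent gene.

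Mesenchymal and fibroblast markers formed the lineage list with the largest share expressed, 18 of 22 (81.8%, median 5.01 FPKM). The share over all protein-coding genes was 51.6%. The lineage lists were chosen with earlier results of these data known, so their order may partly reflect that choice. FN1, which encodes fibronectin, stood at 583, 604 and 649.6 FPKM and VIM, the vimentin filament, at 599, 554 and 582 FPKM. SNAI2 and TWIST1, transcription factors of the epithelial to mesenchymal transition, stood at 39.1, 34.5 and 40.6 and 19.1, 23.7 and 20.9 FPKM. Not all fibroblast genes shared these levels. COL3A1 was at 0.342, 0.411 and 0.356 FPKM, THY1 had 14 reads in all, and POSTN, which encodes periostin, had 3. Pericyte and smooth muscle markers had 8 of 12 expressed, led by NOTCH3 (29.6, 30.1 and 27.7 FPKM), CSPG4 and PDGFRB (28.3, 27.5 and 26.7 FPKM). RGS5, a pericyte marker, stood at 0.299, 0.190 and 0.342 FPKM.

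Other lineages were low, with shares expressed under the 51.6% of all protein-coding genes. Epithelial markers had 1 of 15 expressed, CLDN7 at 1.52, 1.76 and 1.66 FPKM, and CDH1, which encodes E-cadherin, had 4 reads in all. Melanocyte and neural crest markers had 2 of 10 expressed, MITF (2.35, 2.18 and 2.42 FPKM) and TFAP2A (1.91, 2.09 and 2.27 FPKM), and the pigment enzyme gene TYR had no read. Endothelial markers had 3 of 11 expressed: ENG (20.5, 20.5 and 22.05 FPKM), KDR (2.58, 2.40 and 2.53 FPKM) and TEK (1.13, 1.13 and 1.18 FPKM). CDH5, the endothelial cadherin, had 14 reads in all. The summed level of each list differed little between libraries, for example 3.79, 3.82 and 3.50 FPKM for the epithelial list.

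Immune and microglia markers had 3 of 15 expressed (20%, against 51.6% of all protein-coding genes). ITGAX, the CD11c integrin, stood at 16.8, 13.6 and 13.2 FPKM and TMEM119, a microglia marker in brain, at 10.7, 11.01 and 10.1 FPKM. CSF1R stood at 1.94, 1.66 and 1.44 FPKM. The leukocyte genes PTPRC, AIF1 and CX3CR1 had 2, 1 and 2 reads in all, and TYROBP and CD3E had none. The summed level of the list was 30.8, 27.8 and 26.3 FPKM, most of it from ITGAX and TMEM119.

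The astrocyte, oligodendrocyte and neural stem cell lists were thus mixed, with 41.2%, 31.25% and 25% of members expressed beside 51.6% of all protein-coding genes. These shares depend on the unit. At 1 TPM, a level scaled to a fixed library sum, 9 of 17 astrocyte, 7 of 16 oligodendrocyte and 10 of 20 neural stem markers were expressed. By that rule 11926 protein-coding genes were expressed in place of 10296. Some members stood well above 1 FPKM, and the labelled cell type rests on the line's name. The lists of glioblastoma subtype genes stood far apart in level, but they were chosen with earlier results of these data known. The gap between them may partly reflect that choice. Of 24 mesenchymal subtype genes 23 were expressed, with a median of 63.5 FPKM against 1.39 over all protein-coding genes. They included CD44, the hyaluronan receptor, at 267, 259.7 and 282 FPKM (269.5 ± 11.2). CHI3L1, a secreted glycoprotein long used as a mesenchymal marker, stood at 77.01, 74.2 and 65.97 FPKM. The transcription factors named as drivers of this subtype were present, with CEBPB at 300.5, 299.7 and 290.1, FOSL2 at 94.3, 93.6 and 85.1, STAT3 at 12.7, 12.3 and 12.4 and RUNX1 at 8.55, 8.14 and 7.94 FPKM. The only member not expressed was TNFRSF11B (0.653, 0.858 and 0.904 FPKM). The classical list had 7 of 11 members expressed (median 4.39 FPKM), led by NOTCH3 and EGFR, while PTPRZ1 had 3 reads in all. The proneural list had 4 of 13 expressed (median 0.688 FPKM), the highest being TCF12 at 7.57, 7.78 and 9.35 FPKM, and NKX2-2 had no read.

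**Figure D2:**
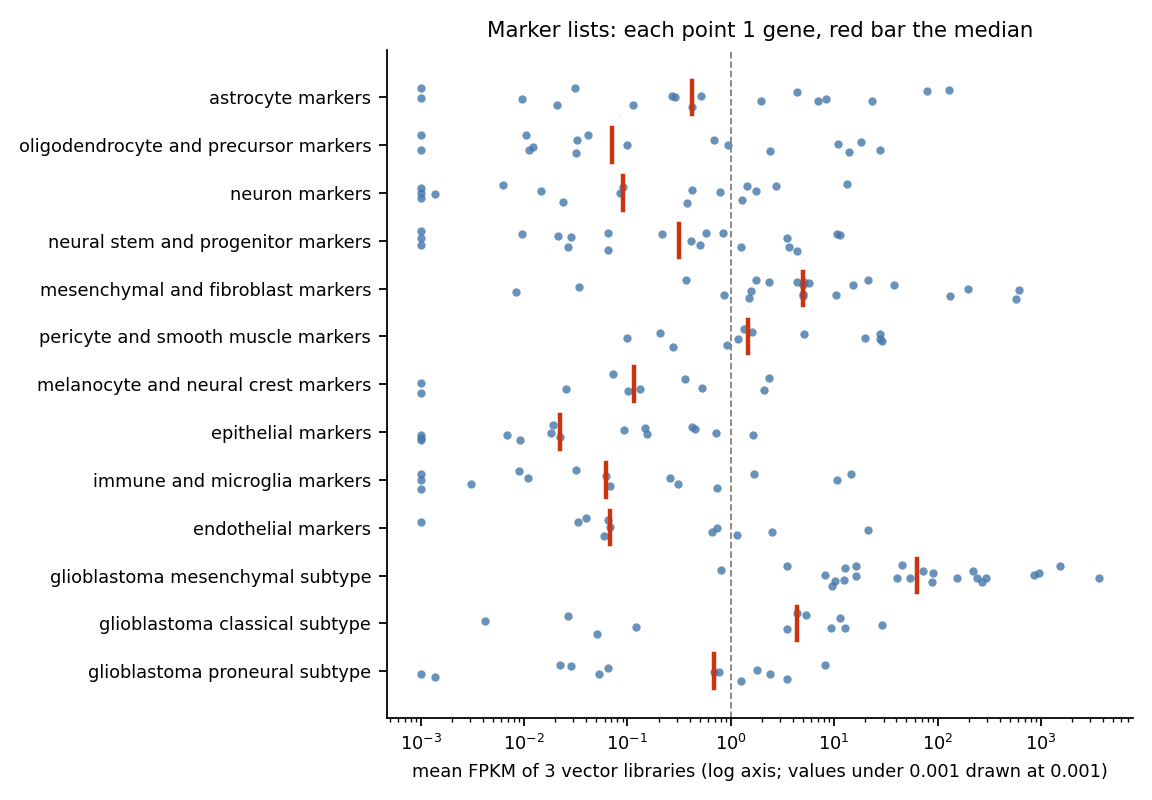
Mean FPKM of the 3 vector libraries on a log axis for the members of 13 marker lists, each blue point 1 gene and each red bar the list's median. The dashed line is 1 FPKM, and values under 0.001 are drawn at 0.001. The mesenchymal subtype median (63.5 FPKM) lies far to the right of the astrocyte (0.422) and proneural (0.688) medians. The lists were chosen with earlier results of these data known.

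Of 58 receptor tyrosine kinases 24 were expressed (41.4%, against 51.6% of all protein-coding genes), and 5 had no read. AXL, a receptor for GAS6, was the highest at 76.7, 82.9 and 79.7 FPKM (79.8 ± 3.11). MET, the receptor for hepatocyte growth factor, came next at 51.1, 52.2 and 60.5 FPKM (54.6 ± 5.13), and the libraries of AXL and MET did not overlap. FGFR1 (27.8, 28.3 and 27.1 FPKM) and PDGFRB overlapped and could not be put in order. EGFR, the receptor most often amplified in glioblastoma, stood at 11.99, 12.7 and 13.1 FPKM. EPHA2, an ephrin receptor, stood at 16.2, 15.9 and 16.3, and DDR2, a receptor for fibrillar collagen, at 13.95, 13.5 and 15.3 FPKM.

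Some receptors known mainly from other tissues were present at lower levels, among them ALK at 3.69, 4.09 and 3.85 and ROS1 at 1.87, 1.78 and 1.97 FPKM. Several receptors known from glia or neurons were near 0. KIT had 4 reads in all, ERBB4 8, RET 6 and NTRK2, the BDNF receptor, 2. FLT1 had none. ERBB2 passed 1 FPKM in replicates 1 and 2 but not in replicate 3 (1.28, 1.26 and 0.858).

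Of 46 growth factor genes 30 were expressed (65.2%, against 51.6% of all protein-coding genes). EREG, an EGFR ligand, was far above the others at 482, 490.0 and 597 FPKM and was highest in replicate 3. FGF2 stood at 65.1, 66.7 and 70.4 and VEGFA at 53.6, 55.6 and 48.7 FPKM. HGF, the MET ligand, stood at 7.56, 8.17 and 9.11 FPKM (8.28 ± 0.779), a level at which MET was 6.59-fold higher (SD 0.186), or 4.27-fold higher with the length of the longest transcript. GAS6 stood at 6.74, 7.04 and 7.02 FPKM. TGFA and HBEGF, further EGFR ligands, stood at 22.3, 23.2 and 27.8 and 11.9, 10.9 and 11.8 FPKM, while EGF was under 1 FPKM (0.674, 0.799 and 0.798) and AREG had 6 reads in all. IGF2 had no read, but only 24.99% of its exon bases are unshared, so its level is uncertain. FGF9 also had none.

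Among 50 ligand and receptor pairs, both genes were expressed in 22, only the ligand in 17, only the receptor in 8 and neither in 3. Of all protein-coding genes 51.6% were expressed. A gene can stand in several pairs, so these are not counts of separate ligands or receptors. EGFR counts as receptor only with EGF and AREG, but as expressed together with EREG, TGFA and HBEGF. TEK likewise lacked ANGPT2 but had ANGPT1, and CXCL8 counts as ligand only with both CXCR1 and CXCR2. Pairs with both genes included HGF with MET, GAS6 with AXL, EREG with EGFR, LIF with LIFR and SPP1, the gene of osteopontin (54.5, 53.9 and 59.5 FPKM), with CD44. Ligands without their receptor included CSF3, whose receptor gene CSF3R had no read, and CXCL8, whose receptor genes CXCR1 and CXCR2 had none. GDNF (18.1, 18.2 and 19.9 FPKM) and BDNF (7.54, 8.09 and 8.68 FPKM) stood beside the near-silent RET and NTRK2. Receptors without their ligand included PDGFRB, whose ligand gene PDGFB had 4 reads in all. The message of a ligand and that of its receptor do not show that the proteins meet.

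**Figure D3:**
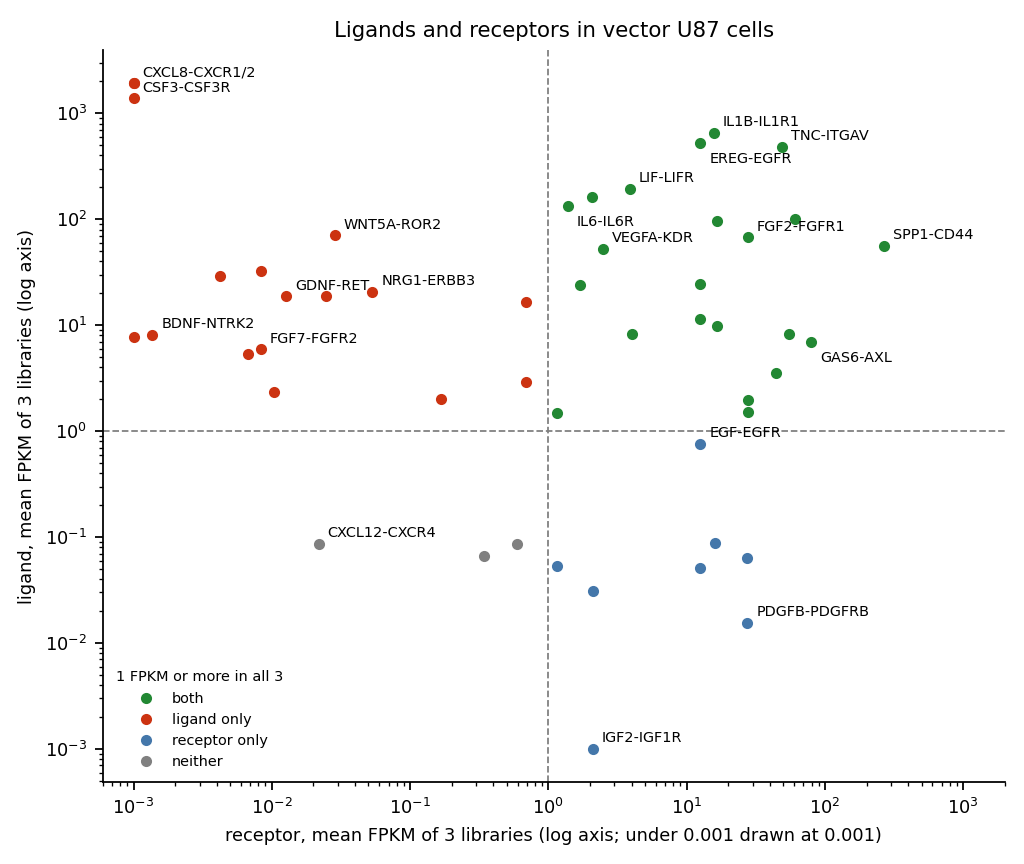
Mean FPKM of the ligand (vertical) against that of the receptor (horizontal) for 50 pairs in the vector libraries, both on log axes with values under 0.001 drawn at 0.001 and dashed lines at 1 FPKM. Green points have both genes expressed (22 pairs), red the ligand only (17), blue the receptor only (8) and grey neither (3). Some genes stand in several pairs. CXCL8 and CSF3 lie at the upper left, with receptors at 0.

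Collagen genes covered a wide range. Of 44 chain genes 21 were expressed (47.7%, near the 51.6% of all protein-coding genes) and 5 exceeded 100 FPKM in all 3 libraries. The chains of collagen VI, which forms beaded filaments around cells, led: COL6A2 at 411, 424 and 397, COL6A1 at 340.1, 374 and 331 and COL6A3 at 196, 214 and 212 FPKM. The type I chains followed, COL1A2 at 197, 202 and 192 FPKM (197 ± 4.89) and COL1A1 at 137, 130.1 and 128 FPKM (132 ± 4.95). Type I fibrils are usually built with more alpha1 than alpha2 chains. Here the message of COL1A2 was 1.496 times that of COL1A1 (SD 0.0581), or 1.91 times with the length of the longest transcript. COL7A1, the chain of anchoring fibrils, differed most among the high chains between libraries, at 113, 126 and 85.4 FPKM.

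The chains of the basement membrane were low. COL4A1 stood at 0.0198, 0.0567 and 0.0179 FPKM (32 reads in all) and COL4A2, its partner in collagen IV, at 0.831, 0.739 and 0.804 FPKM, although both genes share a promoter region and are usually made together. COL4A5 and COL4A6 were above 1 FPKM, at 2.80, 2.85 and 2.67 and 1.36, 1.30 and 1.28. COL3A1, which accompanies type I collagen in most fibroblasts, was under 1 FPKM in each library, and COL6A5 had no read. Collagen processing enzymes had 23 of 28 expressed (82.1%, against 51.6% of all protein-coding genes, with a median of 29.5 FPKM). They were led by the crosslinking enzyme LOXL2 (355, 379.6 and 357 FPKM) and P4HB (318, 317 and 323 FPKM), part of the prolyl hydroxylase.

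**Figure D4:**
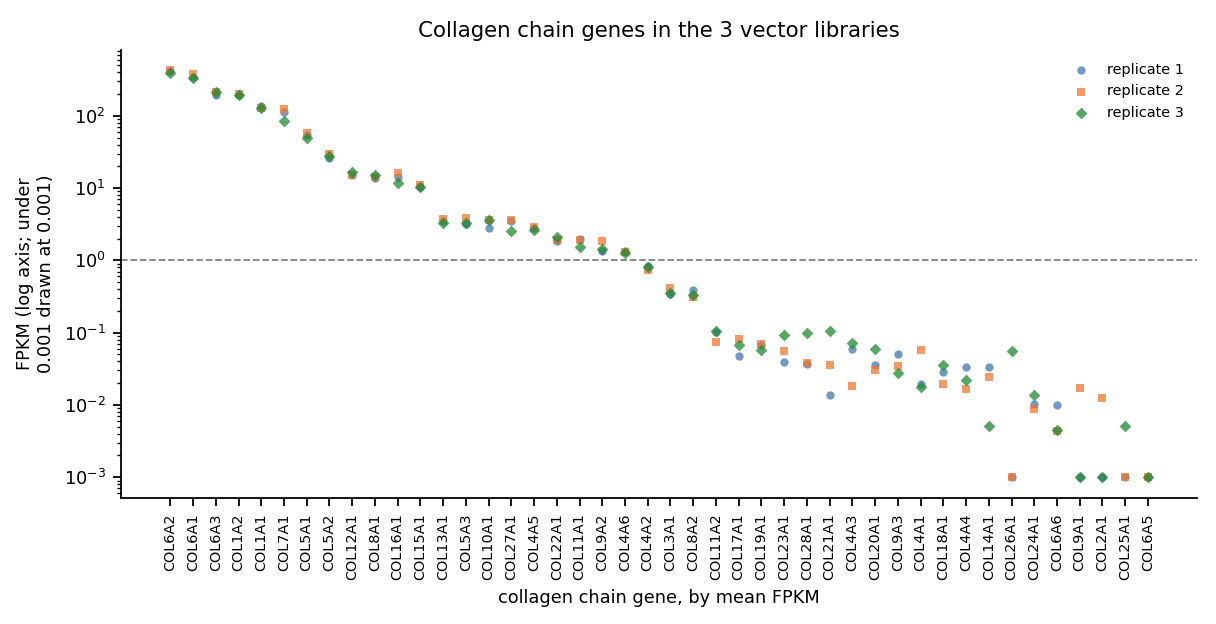
FPKM on a log axis of the 44 collagen chain genes in the 3 vector libraries, ordered by mean, with a dashed line at 1 FPKM and values under 0.001 drawn at 0.001. The 3 libraries lie close together for the expressed chains and spread apart for chains with few reads. COL6A2 is the highest at a mean of 411 FPKM, and COL4A1 stands at 0.0315 FPKM.

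Matrix glycoproteins and proteoglycans had 35 of 51 members expressed (68.6%, against 51.6% of all protein-coding genes). After TGFBI and FN1 came TNC, the tenascin of developing and tumour stroma, at 475, 492 and 488 FPKM, and SPARC at 364, 358 and 369 FPKM. HAS1, a hyaluronan synthase, stood at 166, 192 and 157 FPKM, above HAS2 (10.9, 11.3 and 12.6) in each library. Proteoglycans of brain matrix were low or silent, with BCAN at 0.857, 0.857 and 0.581 FPKM, 6 reads in all on NCAN, 1 on TNR and none on HAPLN1.

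Of 39 integrin and laminin chains 22 were expressed (56.4%, near the 51.6% of all protein-coding genes). ITGB1, the beta chain shared by most matrix-binding integrins, stood at 303, 321 and 371 FPKM. Its partners ITGA3, which binds laminin, and ITGA5, which binds fibronectin, stood at 211, 217 and 207 and 205, 200.1 and 196 FPKM. ITGA6, another laminin-binding chain, was under 1 FPKM (0.320, 0.480 and 0.364), and ITGB4 stood at 0.280, 0.111 and 0.169. Among laminins LAMC1 was highest (90.4, 87.4 and 93.96 FPKM), followed by LAMB2 (62.02, 60.4 and 52.6).

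Matrix proteases and their inhibitors had 36 of 44 members expressed (81.8%, against 51.6% of all protein-coding genes). Below PI3 and TIMP1 stood MMP3 (779, 814 and 869 FPKM) and the gelatinase MMP2 (694, 720.0 and 720.1 FPKM). MMP14, which activates MMP2, stood at 216, 218 and 201 FPKM. MMP9, the other gelatinase, was low (2.10, 2.20 and 2.19 FPKM), and MMP13 had no read. PLAU, the urokinase, and its receptor PLAUR stood at 99.9, 98.3 and 103 and 64.3, 58.9 and 60.2 FPKM.

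Glycolysis turns glucose into pyruvate and lactate, and tumour cells often run it fast. Of 43 genes of glycolysis and glucose transport 29 were expressed (67.4%, against 51.6% of all protein-coding genes). ENO1 stood at 507, 505 and 494, PKM at 462, 465 and 478 and LDHA at 431, 408 and 453 FPKM. LDHB, the other lactate dehydrogenase chain, stood at 12.1, 11.2 and 9.51 FPKM, so that LDHA was 39.9-fold higher (SD 6.79), or 52.8-fold higher with the longest transcript. Only 66.6% of the exon bases of LDHB are unshared. HK1 exceeded HK2 (90.7, 88.3 and 89.5 against 47.3, 52.2 and 50.8 FPKM), and the glucose transporters SLC2A3 and SLC2A1 stood at 23.3, 24.6 and 27.1 and 19.4, 21.1 and 19.8 FPKM. ALDOA was lower than ALDOC (10.5, 10.4 and 10.5 against 23.9, 22.5 and 22.6 FPKM), but only 46.5% of the exon bases of ALDOA are unshared, so that order is uncertain. The liver and muscle genes SLC2A2, PKLR and PGAM2 had no read, the last with no unshared exon bases.

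The citrate cycle list had 33 of 39 expressed (84.6%, against 51.6% of all protein-coding genes), at a median of 9.39 FPKM. MDH2 led at 45.6, 44.5 and 47.3 FPKM and OGDH stood at 39.4, 38.7 and 41.6 FPKM. ME1, the cytosolic malic enzyme, was at 0.259, 0.112 and 0.248 FPKM, while ME2, a mitochondrial form, was at 2.64, 2.42 and 2.91 FPKM. Of 17 genes on the list of respiratory chain isoforms 10 were expressed (58.8%). In the pairs named next, the ubiquitous form of the subunit was expressed and the tissue form was not. COX4I1 stood at 39.7, 43.8 and 40.3 FPKM beside 1 read in all on COX4I2, and COX6A1 at 37.6, 44.3 and 24.2 FPKM beside none on COX6A2.

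Amino acid and methionine genes had 39 of 51 expressed (76.5%, against 51.6% of all protein-coding genes). The glutamine transporter SLC1A5 led at 52.98, 55.8 and 51.6 FPKM. PHGDH and PSAT1, the first enzymes of serine synthesis, stood at 15.4, 15.9 and 13.8 and 23.00, 19.5 and 22.6 FPKM. The methionine salvage enzymes that act after the silent MTAP were expressed, among them ENOPH1 at 19.5, 19.8 and 20.2 and MRI1 at 5.64, 5.48 and 5.02 FPKM. PRMT5, the arginine methyltransferase that is sensitive to the substrate of MTAP, stood at 6.23, 5.81 and 6.38 FPKM. ASS1, which many tumours lose, stood at 37.2, 39.3 and 39.03 FPKM. SLC7A11, the cystine transporter, was under 1 FPKM (0.655, 0.824 and 0.772), and its partner SLC3A2 stood at 21.8, 23.1 and 21.3 FPKM.

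Lipid genes had 34 of 45 expressed (75.6%, against 51.6% of all protein-coding genes). ACLY, which makes cytosolic acetyl-CoA, stood at 88.2, 92.8 and 94.4 and the desaturase SCD at 88.6, 80.05 and 80.98 FPKM. FASN, the fatty acid synthase, stood at 22.2, 23.8 and 20.99 FPKM. PLIN3, a coat protein of lipid droplets, stood at 82.4, 83.4 and 78.3 FPKM, while PLIN2, the droplet coat of most cells, had 8, 5 and 14 reads. PLIN2 lies on chromosome 9, outside the silent run and beyond RPS6. Its neighbours HAUS6 (767, 964 and 1226 reads) and DENND4C (452, 634 and 697 reads) were expressed. LPL, FABP4 and ELOVL2 had no read.

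Cytokine genes had 30 of 40 members expressed (75%, against 51.6% of all protein-coding genes), 8 of them above 100 FPKM in all 3 libraries. After CXCL8 and CSF3 came IL1B, an inflammatory cytokine, at 656, 635 and 682 FPKM. The related LIF, IL11 and IL6, which signal through the shared receptor chain IL6ST, stood at 200.2, 201 and 182, 153, 174 and 157 and 141, 127 and 131 FPKM. TGFB1 was the highest of its family (104, 94.2 and 91.1 FPKM). CXCL10, a chemokine known as an interferon target, had 4 reads in all. CXCL12 had 34 reads and its receptor gene CXCR4 3.

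Of 40 cytokine receptor genes 22 were expressed (55%, near the 51.6% of all protein-coding genes). A further 6 had no read, among them CSF3R, CXCR1, CXCR2, CXCR3 and CCR6. Only 30.8% of the exon bases of CCR6 are unshared. IL13RA2, a decoy receptor found on many gliomas, was the highest at 47.2, 43.4 and 50.6 FPKM. OSMR stood at 37.8, 34.4 and 38.1 and IL6ST at 21.4, 24.7 and 29.6 FPKM, the latter highest in replicate 3. IL1R1, the receptor of IL1B, stood at 15.5, 15.8 and 15.7 FPKM. IFNGR1 and IFNAR1, interferon receptor chains, stood at 9.10, 9.20 and 11.4 and 13.9, 12.2 and 13.5 FPKM.

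Antigen presentation and checkpoint genes had 31 of 37 expressed (83.8%, against 51.6% of all protein-coding genes), those of MHC class II among them. B2M, the light chain of class I, stood at 225, 212 and 238 FPKM. HLA-DRB1 stood at 113, 127 and 117, HLA-DRA at 59.1, 65.2 and 70.1 and CD74, the invariant chain, at 101, 97.8 and 100.4 FPKM. CIITA, the activator that class II genes need, stood at 2.33, 2.09 and 2.17 FPKM. The HLA genes are variable and alike, so their separate levels are uncertain. NT5E, the CD73 enzyme that makes adenosine, led the list at 302, 299.7 and 340.3 FPKM. The checkpoint ligands CD276 and CD274 stood at 38.1, 39.9 and 38.5 and 10.6, 9.24 and 10.6 FPKM, and the costimulators CD80 and CD86 had 1 and 3 reads in all.

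Proliferation genes had 27 of 29 expressed (93.1%, against 51.6% of all protein-coding genes). TOP2A, the topoisomerase of dividing cells, stood at 70.9, 75.3 and 86.3, CCNB1 at 75.03, 73.4 and 78.6 and MKI67 at 30.9, 27.7 and 31.9 FPKM. TOP2A was highest in replicate 3. CCNA1, the cyclin A of germ cells, had 9 reads in all, and CCNE2 was just under 1 FPKM in replicate 1 (0.950, 1.06 and 1.05).

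HOX genes record position along the body and are silent in most of the brain. Here 11 of 39 members were expressed (28.2%, against 51.6% of all protein-coding genes). HOXB2 was the highest at 18.3, 16.4 and 16.9 FPKM, followed by HOXD8 at 7.50, 8.30 and 8.29 FPKM. HOXA7, HOXA9, HOXA13, HOXB1, HOXC12 and HOXC13 had no read. Cancer-testis genes had 8 of 27 expressed (29.6%) and 12 with no read, beside 18.1% of all protein-coding genes with no read. MAGED1, which many tissues express, stood at 93.5, 93.99 and 95.7 FPKM, while MAGEA1, normally kept to the testis, stood at 4.23, 3.59 and 4.33 FPKM. SSX1 (4.12, 2.84 and 2.58 FPKM), MAGEA3 (1.33, 1.57 and 1.97 FPKM) and MAGEA6 (1.88, 1.86 and 1.82 FPKM) have near-identical copies and are uncertain. Ion channels and neurotransmitter receptors had 10 of 46 expressed (21.7%, against 51.6% of all protein-coding genes). KCNN4, a calcium-gated potassium channel of glioma and immune cells, stood at 27.4, 30.3 and 25.9 FPKM. PIEZO1, a channel opened by stretch, stood at 27.8, 27.8 and 25.03 FPKM, and the order of KCNN4 and PIEZO1 was not clear. The dopamine receptor gene DRD1 had no read.

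The 3 libraries were close to each other but differed by more than counting noise. Over 15119 genes with at least 10 counts in each library, the median coefficient of variation (CV) was 9.54%, against 4.78% from counting alone. The common biological coefficient of variation in edgeR was 9.46%. The highest library was more than 2-fold above the lowest for 804 genes (5.32%). The median CV fell from 26.2% at a mean of 10 to 30 counts to 4.90% above 10000 counts. A level of a gene with few reads is therefore known much less well than the levels above.

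Replicate 3 stood farthest from the other two. Of 11211 protein-coding genes with at least 50 counts in each library, replicate 3 was the farthest for 46.9%, replicate 1 for 25.3% and replicate 2 for 27.8%. The SD of the log2 difference between libraries was 0.19 for replicates 1 and 2 and 0.24 for either of them against replicate 3. The deviation followed base composition. Over 5 classes of genes of equal number by GC content, in the lowest class replicate 3 lay 0.12 above the mean of the 3 on the log2 scale, and in the highest class its deviation was -0.10. The deviations of the 3 libraries sum to about 0 by construction, so those of replicate 1 (-0.07 to 0.04) and replicate 2 (-0.05 to 0.07) are no separate evidence. The part of GC content in the levels of single genes was not tested.

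**Figure D5:**
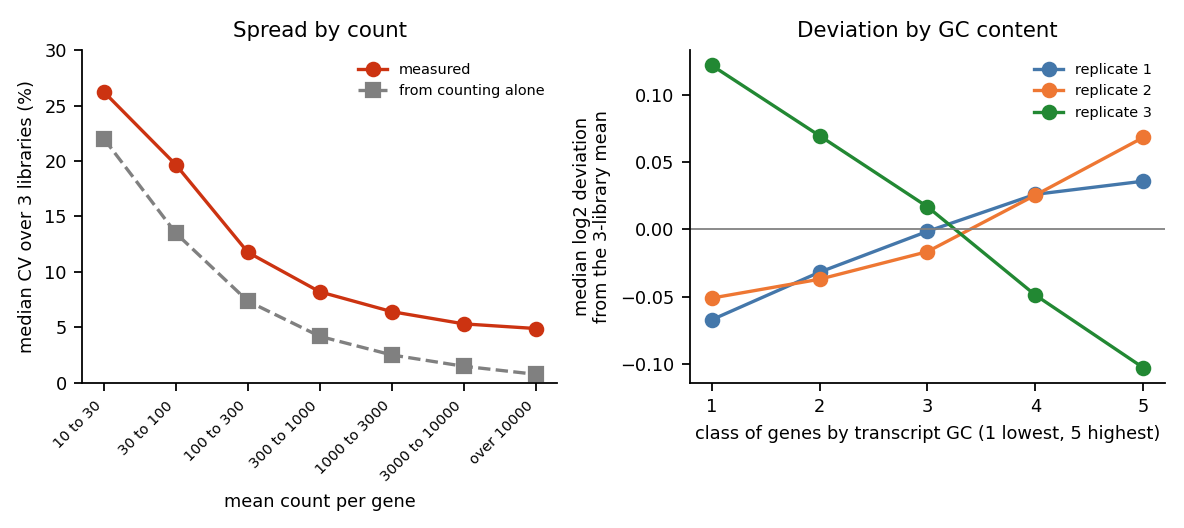
Left, the median CV over the 3 vector libraries (red, percent) and that from counting alone (grey) by the mean count of the gene. Right, the median log2 deviation of each library from the mean of the 3, over 5 classes of transcript GC content from the lowest to the highest. The measured CV falls from 26.2% to 4.90%, and replicate 3 falls from 0.12 to -0.10 with GC content while replicates 1 and 2, taken from the same mean, rise.

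Few protein-coding genes with a good number of reads differed widely between the 3 libraries. Among protein-coding genes with at least 50 counts in each, SMN1, the survival motor neuron gene, had the highest ratio of 2.80 (669, 310 and 265 reads). It has a near-identical copy, as do GPR89A (204, 511 and 204 reads) and EIF3CL (101, 53 and 65 reads), so the division of their reads is uncertain. ATP5ME had 159, 284 and 103 reads with only 38.4% of its exon bases unshared. ENO3, the muscle enolase, was low in replicate 3 (258, 270 and 115 reads, ratio 2.48). SEC31B (142, 136 and 66 reads) and NDUFB8 (ratio 2.21), both on chromosome 10, were also lowest in replicate 3. Of their exon bases 81.6% and 51.5% are unshared, so the level of NDUFB8 above all is uncertain. DENND6B, CCDC110 and DTNBP1 completed the 10 protein-coding genes, with ratios of 2.20, 2.19 and 2.15.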

How the data were processed

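Bulk RNA was sequenced from the 9 libraries of the series, of which the 3 PCDH libraries were used. The 6 other per-sample columns of each table were not used. The deposited count values are whole numbers per gene, with HISAT2 2.0.5 and featureCounts 1.5.0-p3 named in the submitters' processing notes together with GRCh38. The deposited FPKM values equal counts over gene length and library total, times a factor for each library (0.9699, 0.969 and 0.992) whose origin is not given in the sources used here. Gene lengths equal the merged exons of GENCODE 29 for all 58735 genes. Strand setting and library kit are not stated.

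Expression was called at 1 FPKM in each library. The spread was computed from counts scaled by TMM in edgeR 4.0.16 (R 4.3.3), for genes with at least 10 counts in each library, and the calculation was checked on simulated data with a known spread. DESeq2 1.42.0 size factors were an alternative. No groups were compared, so no significance test was run on the data. Named were the 5 given markers, the 20 highest protein-coding genes, up to 4 of the highest and of the lowest members of each list, list members whose role is described, and the 10 protein-coding genes with the highest ratio between libraries. Some genes that this rule names are not reported here. The members, lists and pairs were chosen with earlier results of these data known. The CDKN2C run and the promoter windows were chosen after the values were seen. Promoters were taken from RefSeq and matched by symbol for 14896 of 19936 protein-coding symbols and for 13 of the 20 highest genes.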

Additional observations from a re-analysis of the deposited data

How the results depend on the processing

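No paired analysis was possible because the results come from 1 group and from no test. With no filter on low counts the median CV was 26.9% in place of 9.54%, and 12852 genes were over 2-fold apart in place of 804, while a minimum of 100 counts left 13. Leaving out each library in turn gave a median CV of 6.34% to 8.84% and 334 to 422 genes over 2-fold apart, where 2 libraries span less than 3. Without replicate 3 these values were 6.34% and 334. Without the mitochondrial genome the 100 most counted genes took 22.6% of counts in place of 23.9%. The silent run around CDKN2A held 4 genes in place of 25 when a single read ended it, and that around CDKN2C 2 in place of 5, an alternative added after the data were seen. The other counts and shares for which alternatives were run stayed within 1.5 times or within the spread between libraries. Of 38 list counts, 3 moved at 0.5 FPKM, 7 at 2 FPKM and 8 with TPM by more than 1.5 times. TPM moved 962 of 1065 levels by more than their SD, since the FPKM of a library sum to between 248194 and 253235. The longest transcript in place of merged exons, a choice added later, moved 619, among them CD44 (470 FPKM), COL1A2 (367 FPKM) and HGF (13.6 FPKM). Low read numbers limit the levels of the lowest genes, and the handling of shared exons and close copies was not varied.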

Other observations

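Outside the protein-coding genes, the long noncoding RNA MALAT1, which stays in nuclear speckles, stood at 366, 261 and 170.5 FPKM and differed widely between libraries (CV 36.8%). NORAD, a cytoplasmic noncoding RNA, stood at 142, 132 and 139.8 FPKM with a CV of 3.78%. RN7SL2, an RNA of the signal recognition particle, stood at 225, 389.7 and 148 FPKM (CV 48.7%), and other copies of it make its level uncertain. Of 7629 lincRNA genes 289 were expressed. Several of the highest noncoding entries were processed pseudogenes, such as RPS28P7 at 349, 385 and 395 FPKM, whose reads cannot be told apart with certainty from those of the parent gene.

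Within the mitochondrial genome, MT-CO1, a subunit of cytochrome c oxidase, was the highest at 4726, 4283 and 5095 FPKM. MT-ND6, the gene on the other strand, stood at 594, 547 and 598 FPKM. MT-ND4L and MT-ATP8, which overlap their neighbours, differed most between libraries, at 2126, 2277 and 3034 and 154, 150.1 and 214 FPKM, both highest in replicate 3.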
